A study of Mus musculus with 6 samples.

Results

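Iron handling and plasma carrier proteins of the liver were followed through 10 genes chosen by name: Tfrc, Trf, Fth1, Ftl1, Hamp, Cp, Alb, Ttr, Rbp4 and Ahsg. Of these, 9 had at least 1 probe set on the arrays, and Trf, which encodes transferrin, had none named here. Tested probe sets with a single gene name covered 6897 genes. Ftl1 is not among those, because its probe set carries 2 gene names. A probe set is a group of short probes made to report 1 transcript. The 9 genes had 11 ordinary probe sets, all of which had signals above the floor used for low values, and Tfrc had a further 3 that belong to the array's own controls. The samples were livers of wild-type male C57BL/6J mice of 8 to 10 weeks, hybridized as 20 µg of labelled RNA copies with 1 mouse per Affymetrix U74Av2 array. In the 3 BDL mice (replicates 1, 12 and 3) the common bile duct had been tied and cut 1 day earlier, and the 3 sham mice (replicates 1, 2 and 3) had the abdomen opened without that step. Per-array values below run in that order of replicates within each group. The comparison asks how these transcripts stood 1 day into blocked bile flow.

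Iron travels in plasma bound to transferrin and enters cells through the transferrin receptor, Tfrc. Inside the cell it is stored in ferritin, a shell built from heavy (Fth1) and light (Ftl1) chains. Hepatocytes release hepcidin, the product of Hamp, which blocks iron export from gut and macrophages and is switched on through BMP and SMAD signals when iron is high and through IL-6 and STAT3 in inflammation. Ceruloplasmin, encoded by Cp, carries copper and oxidizes iron so that transferrin can bind it. Albumin (Alb), transthyretin (Ttr), retinol-binding protein 4 (Rbp4) and fetuin-A (Ahsg) are made by hepatocytes and carry fatty acids, bilirubin, thyroid hormone, vitamin A and mineral in plasma. Several of these carriers are known as negative acute phase proteins, whereas Cp and Hamp are known to respond positively to inflammation.

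Hamp has a close copy in the mouse, Hamp2, for which no probe set was named here. Whether the Hamp probe set also reads Hamp2 was not tested. Both promoters are shown because the results on Hamp below concern genes of the BMP and inflammatory pathways. The 150 bases before each start site are given 5′ to 3′ from RefSeq on GRCm38.p6, both on the minus strand, at chr7:30944030-30944179 for Hamp and chr7:30924182-30924331 for Hamp2. Capitals mark matches to GGCGCC, the core of a BMP-responsive element, and to TTCNNNGAA, the STAT motif, each searched on both strands.
Hamp: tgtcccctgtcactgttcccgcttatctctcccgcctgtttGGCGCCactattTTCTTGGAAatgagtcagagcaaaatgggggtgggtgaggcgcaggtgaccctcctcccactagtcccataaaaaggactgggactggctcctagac
Hamp2: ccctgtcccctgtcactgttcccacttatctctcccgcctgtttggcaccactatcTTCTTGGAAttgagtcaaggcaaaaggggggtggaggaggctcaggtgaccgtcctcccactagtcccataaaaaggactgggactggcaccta
The printed stretches were identical at 135 of 153 aligned positions (88.2%). The Hamp stretch held both motifs and the Hamp2 stretch held the STAT motif without GGCGCC. Of 32851 mouse promoter windows of 250 bases, 7.02% held TTCNNNGAA and 9.59% held GGCGCC. The search of the members covered 12 windows of 8 members, and Ttr and Trf were not among them. In these 12, the STAT motif was found for Hamp alone, and GGCGCC for Hamp and for 1 of the 2 Tfrc windows. A match is a description of the letters and not evidence of binding.

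All values are the authors' deposited signals, which were already scaled, with a 2% trimmed mean of 1501 on each array. Sham replicate 1 had raised low signals, with a 10th percentile of 135 against 33.6 to 62.2 on the others. Markers of the labelled tissue were present: 8 of 9 listed hepatocyte markers were tested, 4 were higher and 4 lower in BDL, and their differences lay between -0.14 and 0.27 on the log2 scale. In bulk tissue, fewer cells of a type and less RNA per cell cannot be told apart. Over the whole array, limma called 0 of 9542 probe sets at an adjusted p under 0.05 (0%), and 552 (5.78%; 3.40% higher and 2.39% lower in BDL) at an unadjusted p under 0.05. That 552 became 308 without BDL replicate 3 and 1176 without sham replicate 3. Among the 11 ordinary probe sets of the members, 0 passed and 1, that of Ttr, had an unadjusted p under 0.05. The 3 BDL values lay entirely on one side of the 3 sham values for 1 of the 11, again Ttr, against 10.6% of all tested probe sets (6.32% higher and 4.32% lower in BDL), a share close to that of the members.

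**Figure D1:**
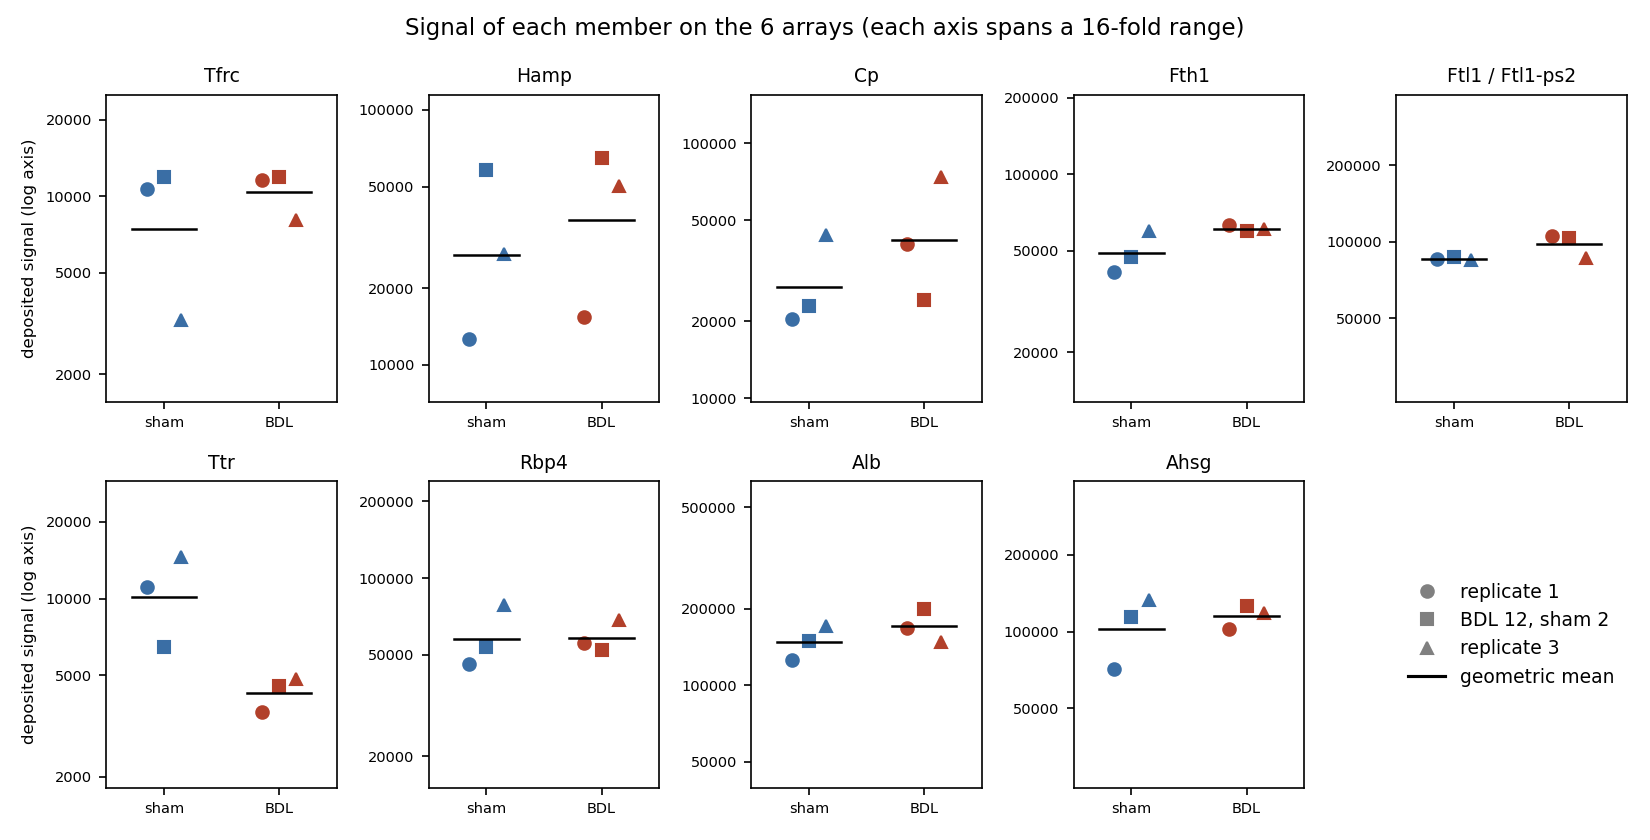
Deposited signal (vertical log axes, each spanning a 16-fold range) of the 9 members in sham (blue) and BDL (red) livers; each point is 1 array and bars are geometric means of 3 arrays. Ttr is the 1 panel in which the BDL points (3576 to 4824) all lie below the sham points (6455.5 to 14576); Hamp, Cp and Tfrc spread widely within a group.

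Transthyretin was the member that differed most between the groups. Ttr signals were 3576, 4520 and 4824 after ligation, and 11138, 6455.5 and 14576 after sham surgery. The BDL values were close together, all below the lowest sham value, while the sham values spread 2.26-fold. The geometric mean was 4272 in BDL and 10157 in sham, a 2.38-fold lower signal in BDL. The log2 difference was -1.25 (SE 0.36, 95% interval -2.08 to -0.42, n = 3 and 3), with a limma adjusted p of 0.830. This absolute difference exceeded that of 98.2% of all tested probe sets. It ranged from -1.58 without sham replicate 2 to -0.99 without sham replicate 3.

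The other carriers had differences closer to 0. Rbp4, the vitamin A carrier that circulates in a complex with transthyretin, had signals of 55695, 52073 and 68560 after ligation and of 45839, 53776 and 78590.0 after sham surgery. Its BDL values lay inside the sham range, and the log2 difference was 0.01 (SE 0.32, 95% interval -0.71 to 0.73). Albumin signals were 168021, 199675 and 147870.3 in BDL and 125084, 149100 and 170913 after sham surgery, so the groups overlapped. The difference of Alb was 0.21 (SE 0.29, 95% interval -0.45 to 0.87). Ahsg, whose product fetuin-A keeps calcium phosphate in solution, had signals of 102112, 126569 and 118743 in BDL. Its sham signals were 71279.9, 114067 and 132865, and the difference was 0.17 (SE 0.33). Sham replicate 1 was the lowest array for Rbp4, Alb and Ahsg, and without it Rbp4 differed by -0.16, Ahsg by -0.09 and Alb by 0.10. After quantile normalization Rbp4, Alb and Ahsg turned to -0.20, -0.02 and -0.03. These 3 carriers therefore had no direction that held under each scaling, and the limma adjusted p was 0.911 to 0.997.

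**Figure D2:**
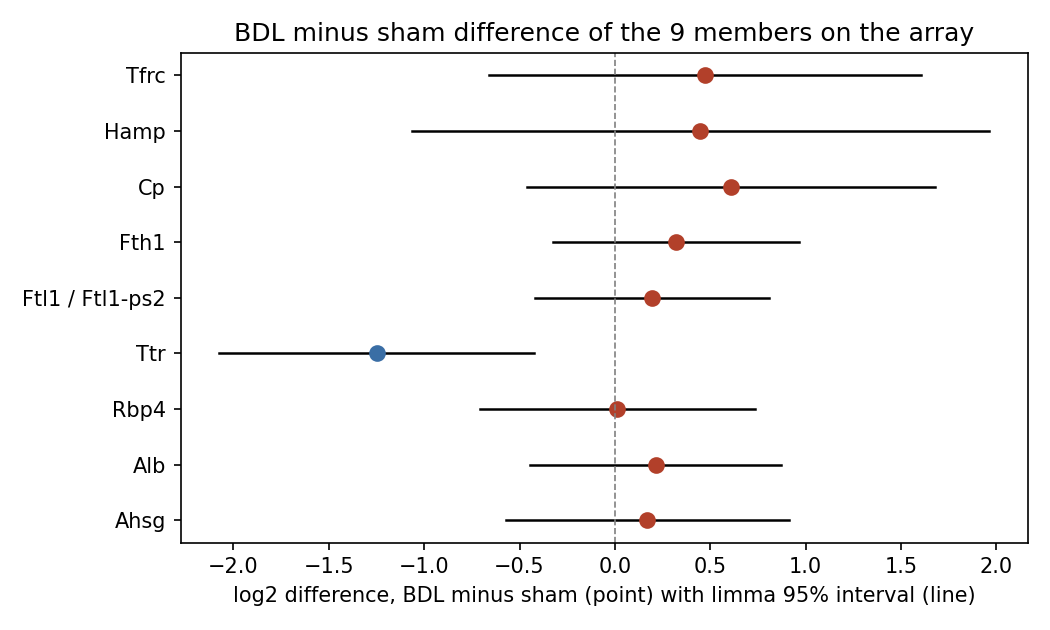
Log2 difference, BDL minus sham, of the 9 members (points; red above 0, blue below) with limma 95% intervals (lines) from 3 arrays per group. The Ttr interval, -2.08 to -0.42, is the 1 that does not cross 0.

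Ceruloplasmin had the largest difference among the iron genes. Cp signals were 40406, 24286 and 73560.4 after ligation and 20380.4, 22920.2 and 43722 after sham surgery. BDL replicate 12 lay next to the 2 lower sham arrays and BDL replicate 3 stood highest, so the groups overlapped. The geometric mean was 1.52-fold higher in BDL, a log2 difference of 0.61 (SE 0.47, 95% interval -0.46 to 1.68) with a limma adjusted p of 0.850. Leaving out BDL replicate 3 gave a difference of 0.20, and leaving out BDL replicate 12 gave 1.00.

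Hepcidin varied more within the groups than between them. Hamp signals were 15432, 64974 and 50217 after ligation, and 12616, 57912 and 27168 after sham surgery. The highest value exceeded the lowest 4.21-fold within BDL and 4.59-fold within sham, with 1 low and 2 high arrays in BDL, and a low, a middle and a high array in sham. The log2 difference was 0.45 (SE 0.67, 95% interval -1.07 to 1.96), with a limma adjusted p of 0.918. It changed sign to -0.10 without sham replicate 1 and to -0.15 with array weights, and it was 1.08 without BDL replicate 1.

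The ferritin chains had differences that did not pass the test and were smaller than those of Cp and Hamp. Fth1, the heavy chain that oxidizes iron for storage, had signals of 63150.4, 59659 and 60744 after ligation, a 1.06-fold spread. Its sham signals were 41509, 47310.0 and 60069, and only sham replicate 3 reached into the BDL range. The log2 difference was 0.32 (SE 0.28, 95% interval -0.33 to 0.96), and the second Fth1 probe set differed by -0.23 (SE 0.36). Leaving out sham replicate 1 gave 0.20 and leaving out sham replicate 3 gave 0.46. The light chain was read by a probe set that the platform annotation assigns both to Ftl1 and to its pseudogene Ftl1-ps2, so its signal cannot be given to Ftl1 alone. Its signals were 105096, 103426 and 86355 in BDL and 85419, 86895 and 84425 in sham. BDL replicates 1 and 12 stood above the tight sham values and BDL replicate 3 lay among them, with a difference of 0.19 (SE 0.27) that turned to -0.04 after quantile normalization. The limma adjusted p was 0.873 for Fth1 and 0.913 for the light chain.

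The transferrin receptor was read by 2 ordinary probe sets. The one with the higher signal gave 11621, 11861 and 8076 after ligation and 10672, 11914 and 3277 after sham surgery. The groups overlapped, and sham replicate 3 was the lowest array. The log2 difference was 0.47 (SE 0.50, 95% interval -0.66 to 1.60, limma adjusted p = 0.885), and it became -0.12 without sham replicate 3. The other probe set gave 867, 688 and 199.0 in BDL and 588, 437.5 and 175 in sham, with a similar difference of 0.46 (SE 0.63). On both of these probe sets the third replicate was the lowest array of its group.

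The array also carries control probe sets for the 5′ end, the middle and the 3′ end of the mouse Tfrc transcript, which together show how evenly the transcript was copied and kept. At the 3′ end the signals were 924, 782 and 513.5 after ligation and 458, 378.5 and 315 after sham surgery. Here the groups were apart, 1.90-fold higher in BDL (log2 difference 0.92; exact two-sided permutation p = 0.1, the smallest possible with 3 against 3). At the 5′ end the signals were 568, 295 and 183 in BDL and 624, 433 and 142 in sham, with overlapping groups and a difference of -0.14 (exact permutation p = 0.9). In the middle they were 210.2, 271 and 147 in BDL and 116, 58.5 and 26.1 in sham. All 3 sham values and 1 BDL value there were under the floor of 152.7, so 1 BDL array and the sham arrays tie at the floor. As deposited, all BDL signals in the middle lay above the sham signals. With values raised to the floor, the BDL mean was 1.35-fold higher (exact permutation p = 0.4). The ratio of the 3′ to the 5′ control, which is read as a measure of RNA quality, was 1.63, 2.65 and 2.81 in BDL and 0.734, 0.875 and 2.22 in sham. Its mean was 2.36 ± 0.641 in BDL against 1.27 ± 0.818 in sham, and the groups overlapped (SD, n = 3; exact permutation p = 0.2). The ratio of sham replicate 3 rests on a 5′ signal under the floor. The ratio of the 3′ to the middle control ran the other way, its BDL mean being 3.59 ± 0.762 against a sham mean of 7.49 ± 4.15 (SD, n = 3; exact permutation p = 0.2), on middle signals mostly under the floor. The part of RNA integrity in the 3′ difference was not tested. Over the 6 arrays, the log2 signals of the 5 Tfrc probe sets correlated pairwise with r from 0.42 to 0.91, a description of signals from the same transcript and arrays.

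**Figure D3:**
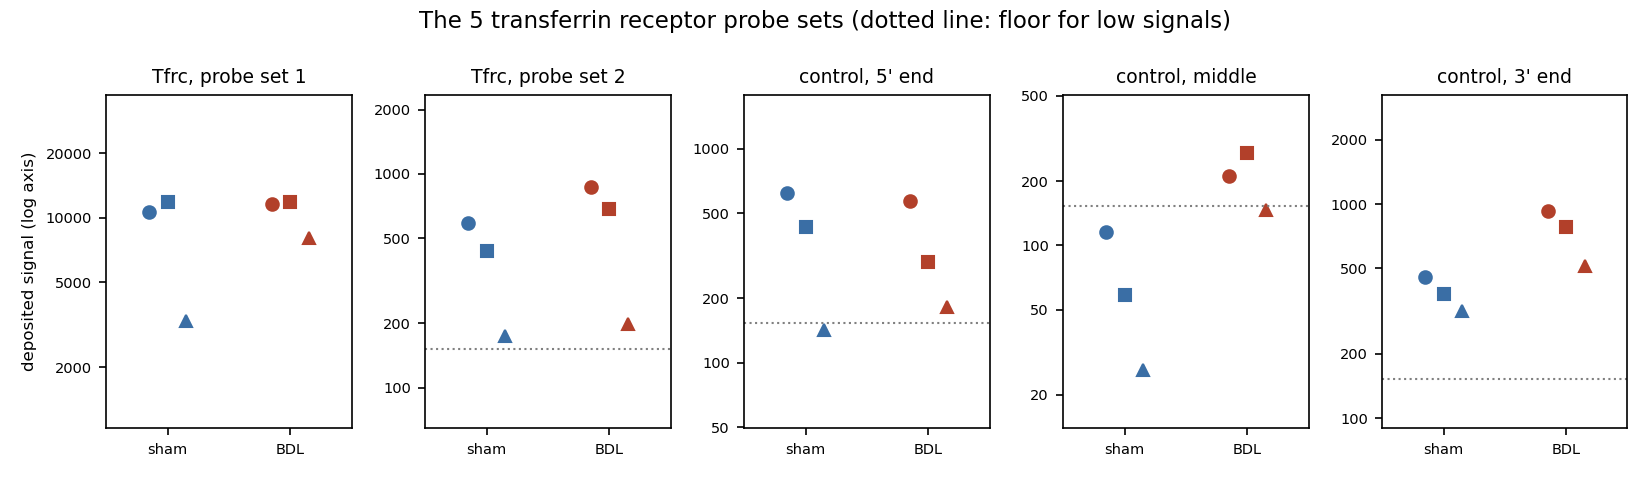
Deposited signal (log axes) of the 5 Tfrc probe sets in sham (blue) and BDL (red); circles are replicate 1, squares BDL 12 or sham 2, triangles replicate 3, and the dotted line is the floor of 152.7. BDL points lie above all sham points at the 3′ end (513.5 to 924 against 315 to 458) and in the middle. In the middle all 3 sham points and 1 BDL point are under the floor, and at the 5′ end the groups overlap.

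Side by side, the iron genes on the array (Tfrc, Hamp, Cp, Fth1 and the light chain) had a positive difference in 5 of 5 cases, with a median of 0.45. The carriers had a positive difference in 3 of 4 cases, with a median of 0.09. After quantile normalization 4 of 5 iron genes and 0 of 4 carriers were positive. Over all tested probe sets 4657 of 9542 were positive, with a median of -0.01. For the 9 members together the median was 0.21, which turned to -0.02 after quantile normalization, so the direction of the median was not kept under that scaling. For the iron genes, no array-wide call and no separation of the groups stood behind that count.

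Among 6896 other genes, those whose log2 signals followed Ttr most closely over the 6 arrays were Znrf1 (Pearson r = 0.984), Nrep (0.984) and Pou3f2 (0.966). Nrep differed by -1.05 (SE 0.36), with its signal on BDL replicate 1 (147) under the floor, and Znrf1 by -0.28 (SE 0.27). The BDL signals of Pou3f2 (78.5 to 119) were all under the floor. For Cp they were the ubiquitin ligase Rnf14 (0.999), the splicing factor Puf60 (0.986) and Strn3 (0.980). Cp and Rnf14 put the arrays in the same order, with Rnf14 at 5246, 4467 and 6312 in BDL and 4144, 4331 and 5378 in sham. With 6 arrays, 6 genes reached an r over 0.95 with Ttr and 14 with Cp.

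Because Hamp moved so much among mice of one group, it was set beside 42 tested entries of 2 lists, 20 genes of its BMP, HFE and IL-6 control and 22 positive acute phase genes, a choice made after its values were seen. Id1, a direct target of BMP signals in hepatocytes, had signals of 835, 1794.5 and 2419.8 after ligation and 449, 2230.2 and 611 after sham surgery. It was high on the 3 arrays with the highest Hamp signals, sham replicate 2 included. Its r with Hamp was 0.892 (exact permutation p = 0.0458, adjusted over the 42 entries 0.193) and its Spearman rho 0.714 (exact permutation p = 0.136, adjusted 0.357). Without sham replicate 1 and BDL replicate 1, the arrays farthest from the median of Hamp, r was again 0.892. Such values rest on BDL replicates 12 and 3 and sham replicates 2 and 3 only. Smad7, an inhibitor that BMP signals induce, had r = 0.858 (exact permutation p = 0.0278, adjusted 0.167) and rho = 0.771 (exact permutation p = 0.103, adjusted 0.357), and r was 0.913 without those arrays. Hfe, a membrane protein that promotes hepcidin expression, ran the other way with r = -0.924 (exact permutation p = 0.0319, adjusted 0.168), rho = -0.943 (exact permutation p = 0.0167, adjusted 0.233) and r = -0.992 without them. The signals of Hfe spanned only 2663 to 3209 over all arrays.

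Of the acute phase list, the metallothioneins Mt1 and Mt2, which bind zinc and copper, had the highest r with Hamp. Mt1 signals were 43647, 147432 and 101072 after ligation and 29102, 101383 and 95249 after sham surgery. The first replicate of each group was lowest for both Hamp and Mt1. The r of Mt1 was 0.939 (exact permutation p = 0.00139, adjusted 0.0583) with rho = 1 (exact permutation p = 0.00278, adjusted 0.117), and r was 0.649 without sham replicate 1 and BDL replicate 1. For Mt2 r was 0.940 (exact permutation p = 0.00278, adjusted 0.0583) and 0.633 without them. An r over 0.8 was reached by 7 of the 22 acute phase genes and by 3 of the 20 control genes, beside 329 of 6896 other tested genes (4.77%). The median r was 0.65 for the acute phase list, 0.37 for the control list and -0.12 over all genes. Without the 2 arrays, r fell in 6 of those 7 acute phase genes to between 0.220 and 0.649, and Cd14 went from 0.858 to 0.847. These 2 arrays had the lowest Hamp signals, so leaving them out also narrows the range of Hamp. The fall therefore cannot tell whether the relations rested on them. Of the 3 control genes over 0.8, Id1 and Smad7 are given above, and Id2, another BMP target, went from 0.808 to 0.476. None of the 42 relations passed the adjustment, and the lowest adjusted exact permutation p was 0.0583. The permutations treated the 6 arrays as exchangeable, without regard to group or replicate. In both groups Hamp was lowest on replicate 1 and highest on BDL replicate 12 or sham replicate 2. A relation between genes therefore cannot be told apart from a factor that such arrays share.

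**Figure D4:**
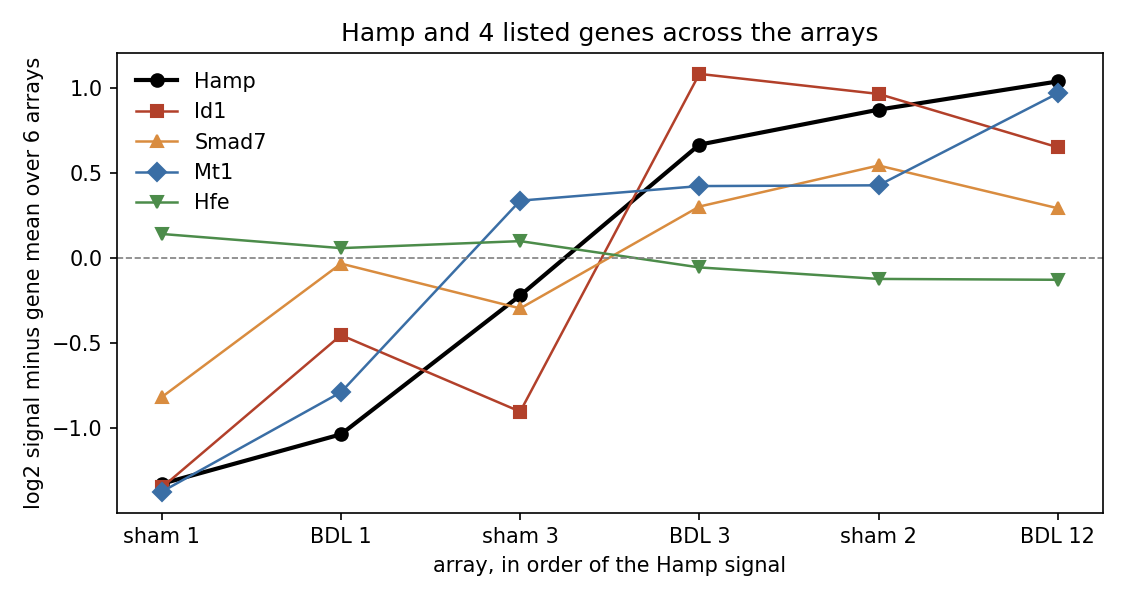
Log2 signal minus the gene's mean over the 6 arrays (vertical axis) for Hamp and 4 genes, with arrays ordered by the Hamp signal from 12616 on sham 1 to 64974 on BDL 12. Sham and BDL arrays alternate along the order; Id1, Smad7 and Mt1 are high where Hamp is high, and Hfe runs slightly the other way.

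Of 25 genes of iron transport and uptake, 14 were tested, 7 with a positive and 7 with a negative difference and a median of -0.04. The groups were apart for 1 higher and 1 lower gene, beside 6.32% and 4.32% of all tested probe sets. Of the list, 0 passed the limma adjusted threshold (lowest adjusted p 0.832). Slc11a1, the metal transporter of macrophage phagosomes, had signals of 595, 369 and 861 after ligation and 315, 360.2 and 232 after sham surgery, a difference of 0.95 (SE 0.38). Of the 10 listed macrophage markers 8 were tested and 6 were positive, with a median of 0.63. Among them C1qb differed by -0.29 and its second probe set by 1.77, and Csf1r by 0.40 and its second probe set by -0.07. Their summed signal was 8630.2 to 12148 in BDL and 5563 to 9097 in sham, with overlapping groups and none at 0, and their part in the Slc11a1 difference was not tested. Slc22a17, a receptor for lipocalin 2, differed by -0.60 (SE 0.30), its BDL arrays spanning 484 to 734 and its sham arrays 738 to 948. Lcn2, the siderophore-binding lipocalin 2, differed by 0.63 (SE 0.36) with overlapping groups, and its second probe set by -0.46. Slc39a8, a zinc and iron importer, differed by -0.39 (SE 0.33) with overlapping groups.

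Of 30 genes that control hepcidin, 20 were tested and 16 had a positive difference, beside 4657 of 9542 over all probe sets, with a median of 0.39, the groups apart for 3 higher and 0 lower (6.32% and 4.32% over all probe sets), and 0 past the limma adjusted threshold or an unadjusted p under 0.05. After quantile normalization the count was again 16 of 20, with a median of 0.41. Il6st, the signalling subunit of the IL-6 receptor, had signals of 2521, 2215 and 3269 in BDL and 1770.4, 1909.8 and 1487 in sham. All BDL signals were above all sham signals, with a difference of 0.62 (SE 0.29), and the second Il6st probe set differed by 0.37. Jak1, the kinase bound to that receptor, differed by 0.75 (SE 0.36), with 2637 to 3288 in BDL and 1081 to 2319.6 in sham. Smad6, an inhibitor of BMP signals, differed by 0.86 (SE 0.54) and Bmpr2, a BMP receptor, by 0.61 (SE 0.35), both with overlapping groups. Il6 itself was on the array and not tested because too few signals exceeded the floor.

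Of 20 genes of iron regulation and iron-sulfur cluster assembly, 13 were tested, 5 positive and 8 negative, with a median of -0.12. Hif1a, the oxygen-regulated transcription factor, was the 1 gene with its groups apart, beside 10.6% of all tested probe sets. Its signals were 7310.2, 7598 and 7348 in BDL and 4357, 4888 and 4521 in sham, a difference of 0.69 (SE 0.26). A second Hif1a probe set differed by 0.87 (SE 0.31). Fdx1, a mitochondrial ferredoxin, differed by -0.34 (SE 0.32), Nfs1, the cysteine desulfurase of cluster assembly, by -0.21 (SE 0.27), and Bola3, an assembly factor, by 0.22 (SE 0.28), all with overlapping groups.

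Of 15 genes of heme synthesis and breakdown, 12 were tested, 6 positive and 6 negative, with a median of -0.12. The groups were apart for 1 higher and 1 lower gene, beside 6.32% and 4.32% of all tested probe sets. Hmox1, the enzyme that frees iron from heme, and Slc48a1, a heme transporter, differed by 1.25 (SE 0.48) and 0.73 (SE 0.36). Slc48a1 signals were 3730.4, 1602 and 2529 after ligation and 1417 to 1608 in sham, so BDL replicate 12 overlapped the sham arrays. Hmox1 signals were 19149.5, 4621 and 8974 in BDL and 4131.9, 3719.2 and 3873.7 in sham, with the groups apart. Like Slc48a1, Hmox1 was highest on BDL replicate 1 and lowest of the BDL arrays on replicate 12. The synthesis enzymes Urod and Cpox differed by -0.57 (SE 0.27) and -0.63 (SE 0.35). Urod, the uroporphyrinogen decarboxylase, had 1773, 2137 and 2058 in BDL and 3137, 3076 and 2662 in sham, with the groups apart, whereas its second probe set, of lower signal, differed by 0.41 (SE 0.64). The limma adjusted p was 0.832 for Hmox1, Urod, Slc48a1 and Cpox.

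Of 31 other plasma carriers, 22 were tested, 12 positive and 10 negative, with a median of 0.03. No gene had its groups apart on its brightest probe set, beside 10.6% of all tested probe sets. Weaker probe sets of the same genes are not in that count. After quantile normalization 9 of 22 were positive, with a median of -0.06. Serpina6, the corticosteroid-binding globulin, had the largest difference, -1.94 (SE 0.93). Its signals were 619.9, 5091 and 339.9 after ligation and 6505, 1840.0 and 5018.5 after sham surgery, so that BDL replicate 12 lay within the sham range and sham replicate 2 was the lowest sham array. Sham replicate 2 was the lowest sham array for Ttr as well. The second Serpina6 probe set differed by -1.36 (SE 0.50), with 389 to 739.9 in BDL and 798 to 2788 in sham, so that there the groups were apart. Shbg, the sex hormone-binding globulin, differed by -0.61 (SE 0.57), Pltp, a phospholipid transfer protein, by 0.70 (SE 0.63), and Orm1, a drug-binding acute phase glycoprotein, by 0.41 (SE 0.30), each with overlapping groups.

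Of 24 positive acute phase genes, 22 were tested and 20 were positive, with a median of 0.22. The groups were apart for 0 of them, beside 10.6% of all tested probe sets. After quantile normalization 13 of 21 were positive, with a median of 0.06, so the count of positive genes depends on the scaling. Cd14, the lipopolysaccharide co-receptor, differed by 2.61 (SE 1.02) with overlapping groups, from 1873 on BDL replicate 1 to 29692 on BDL replicate 12 and from 717 to 4568 in sham. Hp, haptoglobin, which binds free hemoglobin, differed by 0.28 (SE 0.31). Of 10 red blood cell markers, whose cells make much heme, 5 were tested, 2 positive and 3 negative, with a median of -0.24. Their summed signal was 19239 to 21109.6 in BDL and 10585 to 22063 in sham, most of it from the hemoglobin gene Hba-a1, with 15626, 15855 and 17762 in BDL and 5902, 18423 and 6473 in sham. Their part in the heme and haptoglobin values was not tested.

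**Figure D5:**
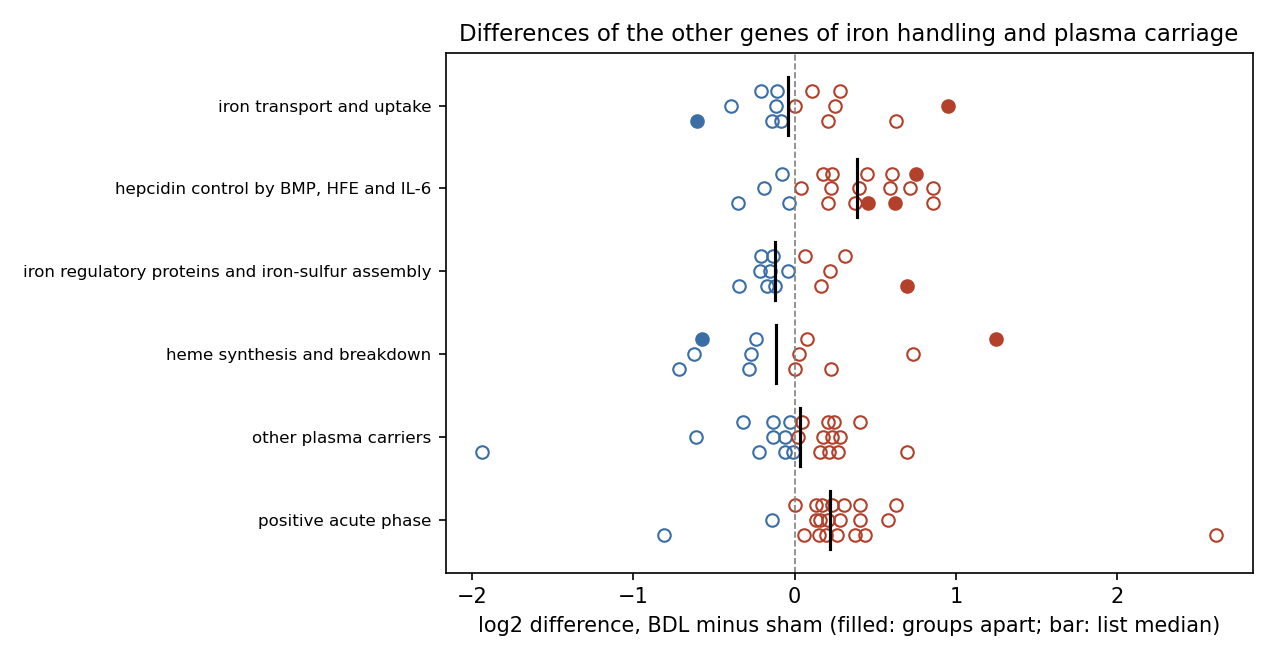
Log2 difference, BDL minus sham (horizontal axis), of the brightest probe set of each tested gene in 6 lists (rows). Filled points have BDL and sham values that do not overlap, and black bars are list medians. The hepcidin control genes have the highest median, 0.39; the farthest points are Serpina6 at -1.94 and Cd14 at 2.61.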

How the data were processed

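Each probe set has 1 deposited intensity per array, linear and above 0, which the authors computed with MicroArray Suite (4.0) and GeneChip Expression Analysis (version 3.1), per the series' design text. Scaling target, background step and detection calls are not stated in what was read for this work, and without calls absent and weak transcripts look alike. The intensities were kept as deposited, raised where lower to 152.7, the 25th percentile over the arrays (the floor), and put on the log2 scale. Probe sets with at least 3 of 6 arrays above the floor were tested (9542 of 12488; 66 controls left out) with limma 3.58.1 in R 4.3.3 (lmFit and eBayes, no covariates) and Benjamini-Hochberg adjustment over all of them. The number of arrays limits the precision. Differences of low signals are understated by the floor. SE is limma's moderated standard error.

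Names come from the platform annotation, updated to RefSeq (GRCm38.p6); a gene is represented by its brightest probe set on average. The text names all members and from each list up to 4 tested genes of lowest unadjusted p. Id1, Smad7, Hfe, Mt1, Mt2, Id2, Hba-a1, Il6, C1qb and Csf1r were chosen after their values were seen. Members and lists were chosen with earlier results of these data known. Lists are described by counts and medians without a test; their values after quantile normalization were added after seeing the data. Other settings for the floor, filter, normalization, variance model, array weights, replicates and block were tried. The limma script was tested on simulated data.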

Additional observations from a re-analysis of the deposited data

How the results depend on the processing

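For the 9 members, 126 of 137 differences under alternative settings kept their direction, and 0 passed the adjusted threshold. The other floors, the missing filter, the variance trend and the robust variances left each member difference as it was. Their share of the 137 is therefore no check of direction. Ttr stayed negative in each setting, from -1.62 with the replicate block to -0.95 with array weights. Its limma adjusted p was 0.420 to 0.852 over the settings other than leaving out 1 array. BDL replicate 12 and sham replicate 2 have no partner of the same number, so the block's differences rest on replicates 1 and 3 only. Quantile normalization moved the median of the members from 0.21 to -0.021 and reversed the light ferritin chain (-0.039), Alb (-0.021), Rbp4 (-0.20) and Ahsg (-0.031); array weights reversed Hamp (-0.15); the cause was not tested. Leaving out 1 array at a time gave a median of 0.10 to 0.32, and ranges of -0.12 to 0.81 for Tfrc, -0.10 to 1.08 for Hamp, -0.16 to 0.23 for Rbp4 and -0.094 to 0.36 for Ahsg. The number of member probe sets with groups apart was then 1 to 3 (3 without BDL replicate 3 or sham replicate 3, 2 without BDL replicate 12 or sham replicate 2), where fewer arrays also raise that share over all probe sets to between 16.4% and 30.1%, and the 3′ to 5′ difference of the Tfrc controls was 0.82 to 1.56. Without a filter on low signals 3 of 12422 probe sets passed the limma adjusted threshold, none of them a member, against 0 under the other settings. The labels share replicate numbers 1 and 3, and same-numbered arrays had deviations correlated at 0.21 and 0.25. BDL replicate 12 with sham replicate 2 gave 0.29, and all other pairs were negative, from -0.21 to -0.04. A factor shared by such arrays was not tested. With the replicate block, which rests on replicates 1 and 3, the median was 0.18, and 0 probe sets passed. Signals near the floor limit the second Tfrc probe set and the Tfrc controls.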
